A study of Mus musculus with 16 samples.

Results

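Glutamatergic nuclei of the mouse medial PFC that held transcripts of both Fezf2 and Bcl11b were selected from single-nucleus RNA-Seq counts as extratelencephalic neurons. A nucleus was selected when it had at least 1 UMI (unique molecular identifier, 1 counted transcript) of the vesicular glutamate transporter Slc17a7, no UMI of the GABA-synthesizing enzymes Gad1 and Gad2, at least 1 UMI each of Fezf2 and Bcl11b, no UMI of Foxp2 or Tshz2, and at most 1 UMI of Cux2. The rule selected 1230 of the 54463 nuclei that were glutamatergic by the same counts (2.26%), of 114512 nuclei in the table (1.07%). Each of the 16 mice gave between 33 and 132 such nuclei.

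All animals were male and 22 weeks of age. The 4 WT controls (mice 26, 27, 28, and 36; 228 selected nuclei) and the 4 alcohol-exposed WT mice (6, 7, 17, and 18; 268 nuclei) were of the B6;129 background. The 4 3xTg-AD controls (12, 13, 14, and 21; 323 nuclei) and the 4 alcohol-exposed 3xTg-AD mice (4, 31, 33, and 34; 411 nuclei) carried the human APPswe and tauP301L transgenes. Alcohol was given as chronic intermittent ethanol vapor after injections of ethanol with pyrazole, which slows its clearance, and controls received pyrazole in saline and air. All mice went through the Morris water maze before the tissue was taken. The vapor had ended days before the maze, and the paper calls this time protracted withdrawal. The alcohol contrasts below thus compare a history of exposure. The transgenes are driven by Thy1 regulatory sequence, which acts mainly in neurons. They are not genes of the table, so their transcripts were not counted apart here. Whether reads from them were counted under the mouse genes Thy1, App, or Mapt was not tested. Nothing in the labels names a shared litter or batch, and the p-values measure the spread between the 4 mice of a group.

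Extratelencephalic neurons are the large pyramidal cells of layer 5 whose axons leave the cerebral hemisphere for the thalamus, midbrain, pons, and spinal cord. The zinc finger transcription factor Fezf2 specifies this fate in the embryo, and Bcl11b (also named Ctip2) acts after it in the outgrowth of the subcerebral axon. In the PFC these cells carry the output of the cortex to the brainstem, and their dendrites are known for a high density of hyperpolarization-activated cation channels. Foxp2 marks corticothalamic neurons of layer 6, Tshz2 marks near-projecting neurons, and Cux2 marks intratelencephalic neurons of the upper layers, whose axons stay within the cortex and striatum.

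The rule rests on few transcripts. Selected nuclei held 1.37 UMIs of Fezf2 (at most 6) and 1.61 UMIs of Bcl11b (at most 8) on average, and 901 of them had a single Fezf2 UMI and 752 a single Bcl11b UMI. Their depth was higher than that of the other 53233 glutamatergic nuclei, with a median of 3527.5 against 2017 UMIs and of 1887 against 1236 detected genes. The selected nuclei of a mouse held between 85183 and 529357 UMIs together, 4748878 in all. Levels below are counts per 1000000 UMIs (CPM) of the summed selected nuclei of a mouse, or of its other glutamatergic nuclei, with the libraries of both scaled together by TMM (trimmed mean of M values, which evens out differences in composition). The genes of the rule are given as a description only. Over the 16 mice, Fezf2 ranged from 280 to 460 CPM (median 380) in the selected nuclei and from 20.8 to 47.8 CPM (median 36.1) in the others. Bcl11b ranged from 353 to 567 CPM (median 448), against 60.0 to 109 CPM (median 79.0). Slc17a7 ranged from 547 to 824 CPM (median 676), against 800 to 998.8 CPM (median 932), and the rule asked for a Slc17a7 UMI in the nuclei of both sets.

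Free RNA also gives UMIs to nuclei that do not use a gene. Among 369 oligodendrocyte nuclei, which should lack both factors, 3.52% had a Fezf2 UMI and 4.61% a Bcl11b UMI at a median depth of 905 UMIs. The other glutamatergic nuclei reached 6.95% and 14.1%. With each nucleus thinned to 1000 UMIs, which left out 34 selected and 11361 other glutamatergic nuclei, the shares of the other nuclei were 3.61% and 7.57%, against 3.76% and 3.01% in 133 oligodendrocytes. The Fezf2 share of the other glutamatergic nuclei was thus near that of oligodendrocytes. Of the selected nuclei, 583 had exactly 1 UMI of each factor. How many nuclei met the rule through free RNA was not tested, so the selected set may hold other glutamatergic cells. Of the barcodes, 1694 occurred in more than 1 mouse, and 36 selected nuclei carried a barcode also seen in another mouse, but no 2 selected nuclei shared a barcode.

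The levels of several genes that the rule did not use followed the UMIs of Fezf2 and Bcl11b. Nuclei were pooled over all mice, with no test, by their Fezf2 and Bcl11b UMIs while the rest of the rule was kept. There were 38036 nuclei with neither factor, 2624 with Fezf2 alone, 5904 with Bcl11b alone, 583 with exactly 1 UMI of each, and 647 with 3 or more UMIs of both together. In that order Lratd2, a marker of layer 5 extratelencephalic cells, stood at 2.80, 9.09, 9.30, 18.4, and 27.7 CPM. The natriuretic peptide clearance receptor Npr3 stood at 8.64, 22.4, 22.6, 34.2, and 50.9 CPM. Both genes were thus lowest without either factor, intermediate in nuclei with 1 of them, and highest in nuclei with the most UMIs of both. Rorb, a marker of layer 4 and layer 5 intratelencephalic cells, went the other way, at 160, 132, 89.0, 70.6, and 37.2 CPM. The corticothalamic gene Tle4 followed neither order, at 117, 177, 164, 179, and 106 CPM. The median depth of the 5 sets differed too, at 1881, 2487.5, 2328, 3084, and 4102 UMIs, and its part in these pooled levels was not tested. Only 13 nuclei were kept out by a second Cux2 UMI, and 52 selected nuclei had 1 Cux2 UMI.

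**Figure D1:**
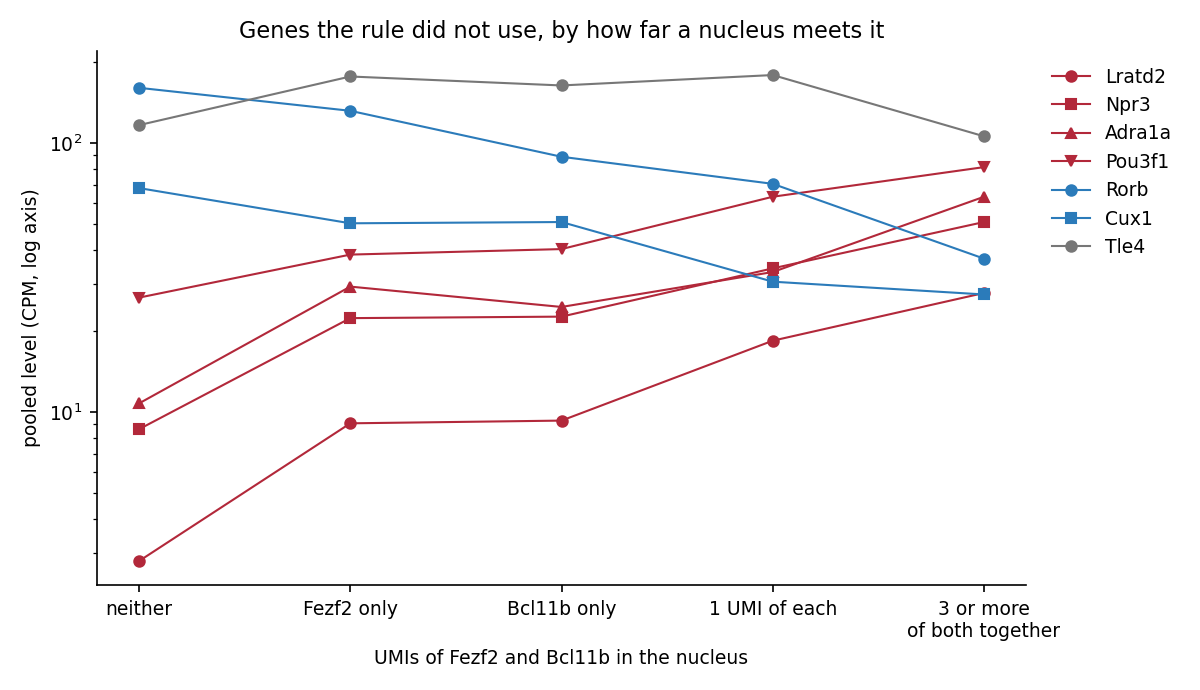
Pooled level (CPM, log axis) of 7 genes in glutamatergic nuclei with neither Fezf2 nor Bcl11b, with 1 of them, with 1 UMI of each, and with 3 or more UMIs of both together. Genes of subcerebral projection neurons (red) end higher than they start, as Npr3 does from 8.64 to 50.9 CPM, though Adra1a is lower with Bcl11b alone than with Fezf2 alone. Rorb and Cux1 (blue) end lower than they start, and Tle4 (grey) starts at 117 and ends at 106 CPM.

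To describe these cells by genes outside the rule, their summed counts were compared with those of the other glutamatergic nuclei of the same mouse, with edgeR and the mouse as a term. Of 12429 genes tested, 1841 were higher (14.8% of those tested) and 2284 were lower (18.4%) at an adjusted p of at most 0.05. Against that background, 22 of the 28 tested genes of the list of subcerebral projection genes were higher and 4 were lower, with a median log2 fold change of 0.76 beside -0.01 over all genes. Among 10 tested intratelencephalic genes, 8 were lower and none was higher (median -1.003). The name extratelencephalic therefore rests on most, not all, of the markers. The other nuclei held many more UMIs, and a gene could pass the filter on low counts through them alone. Of the called genes, 1434 of the 1841 higher and 1290 of the 2284 lower ones also passed it in the selected nuclei by themselves, as did 16 of the 22 subcerebral genes that were higher and 3 of the 8 intratelencephalic genes that were lower (Rorb, Cux1, and Rasgrf2). Calls of genes with few UMIs in the selected nuclei are no support for the name. Because the selected nuclei were deeper, the comparison was repeated in nuclei of 1000 to 4000 UMIs on both sides (701 selected with a median of 2846 UMIs, 37024 others with 2224). There 390 of 11363 genes were higher (3.43%) and 767 were lower (6.75%), with 14 higher and 1 lower of 24 tested subcerebral genes and 7 lower of 9 intratelencephalic genes. Of the 3882 calls that could be tested there, 1066 were also called, and 3674 had the same sign. Values in that depth window follow the main ones below.

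The genes of subcerebral projection neurons with the largest differences encode transcription factors, receptors, and membrane proteins. Lratd2 ranged from 0 to 54.0 CPM (median 22.0) in the selected nuclei and from 2.92 to 6.49 CPM (median 4.18) in the others, higher in 15 of 16 mice (log2 fold change 2.54 ± 0.20, SE, not tested in the window). Npr3 ranged from 26.9 to 88.2 CPM, against 6.05 to 16.2 CPM (1.91 ± 0.14, and 1.75 in the depth window). Adra1a, the α1A-adrenergic receptor, ranged from 20 to 107 CPM, against 8.98 to 21.04 CPM (1.75 ± 0.13, and 1.55 in the window). The ranges of Npr3 did not overlap between the selected and the other nuclei and those of Adra1a did by about 1 CPM, whereas those of Lratd2 overlapped because 1 mouse had no Lratd2 UMI among its selected nuclei. The POU-domain factor Pou3f1 (53.3 to 118 CPM, against 20.01 to 46.7) differed by 1.46 ± 0.10, with 1.58 in the window, and was higher in all 16 mice. The same held for the transcriptional repressor Bcl6 (1.48 ± 0.18, window 1.03) and for the netrin-family membrane protein Ntng1 (1.19 ± 0.06, window 0.91), at a median of 319 against 144 CPM. Pooled over all mice, Lratd2 and Bcl6 stood at only 24.0 and 23.2 CPM in the selected nuclei, so their folds rest on few UMIs.

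Other members of the list differed less. The thyroid hormone-binding protein Crym, at a median of 178 against 121 CPM, was higher in 16 of 16 mice (0.69 ± 0.06). Of the neurofilaments, which make up the caliber of large axons, the medium chain Nefm rose (0.80 ± 0.08, window 0.73) and so did the heavy chain Nefh (0.83 ± 0.20), whose 0.81 in the window did not pass (adjusted p = 0.080). The light chain Nefl was instead slightly lower, by -0.20 ± 0.07, with 0.02 in the window. The transcription factors Etv1 (0.44) and Sox5 (0.33), which other deep-layer cells also use, were higher over all nuclei but not in the window (0.26 and 0.29, adjusted p = 0.13 and 0.096). Some listed genes went against the name. The Purkinje cell protein Pcp4, at a median of 209 against 285 CPM, was lower in 15 of 16 mice (-0.39 ± 0.05) but did not pass in the window (-0.20, adjusted p = 0.0672), and the growth factor gene Bmp3 was lower in all 16 (-1.15 ± 0.18, window -0.96), on 55 UMIs in all selected nuclei together. S100a10 was lower by -0.41 and Vat1l higher by 0.53, and neither passed in the window or in DESeq2. Diaph3 (0.53) and Opn3 (-0.28) did not pass the test, and both had fewer than 8 CPM on average.

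**Figure D2:**
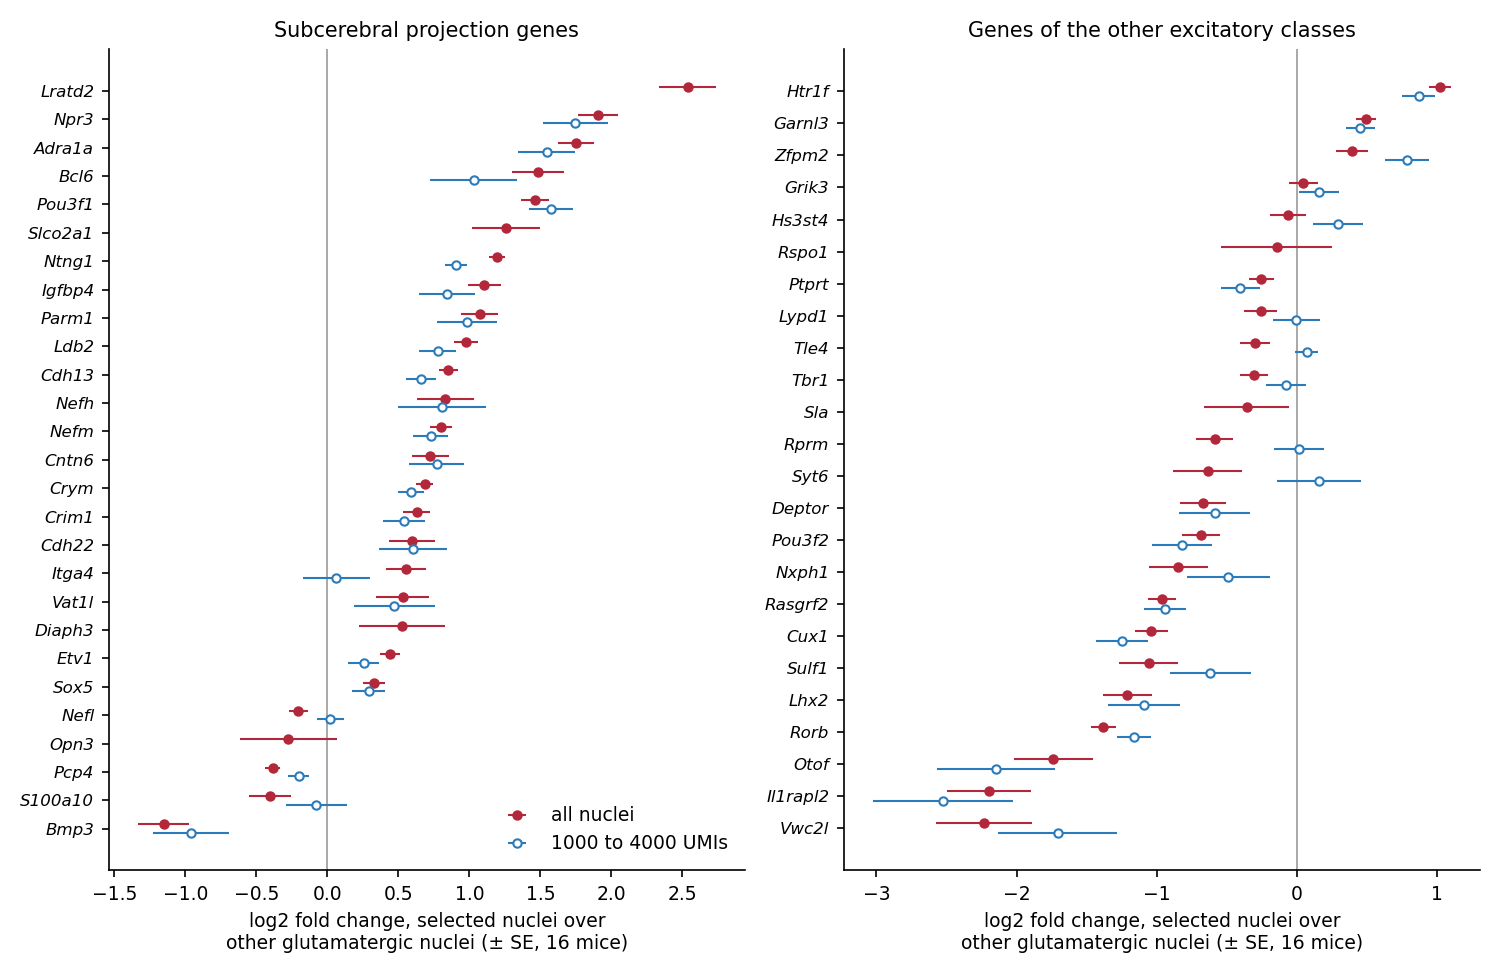
Log2 fold change (± SE, 16 mice) of selected versus other glutamatergic nuclei for subcerebral projection genes (left) and for intratelencephalic, corticothalamic, and near-projecting genes (right), over all nuclei (red, filled) and over nuclei of 1000 to 4000 UMIs (blue, open). Most genes on the left lie above 0, Lratd2 highest at 2.54, while Rorb lies at -1.38 and Cux1 at -1.04 on the right.

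Several markers of the other glutamatergic classes were lower. Rorb ranged from 18.2 to 107 CPM, against 96.6 to 282 CPM, and was lower in all 16 mice (-1.38 ± 0.09, window -1.16). The homeobox factor Cux1, a relative of Cux2 outside the rule, was lower by -1.04 ± 0.12 (window -1.25), and the exchange factor Rasgrf2 of upper layers by -0.97 ± 0.10 (window -0.94). Il1rapl2 and Otof, at a median of 2.91 and 3.75 CPM, had only 15 and 20 UMIs in all selected nuclei together. Of 10 corticothalamic genes, 5 were lower and 2 higher (median -0.31), of which 2 and 2 passed the filter in the selected nuclei alone, and no corticothalamic gene was lower in the window, where the signs of Tle4 (0.07), Syt6 (0.16), and Rprm (0.01) turned. Garnl3 (0.49) and the GATA cofactor Zfpm2 (0.39) were the 2 higher genes, and both were also called in the window (0.45 and 0.79). Near-projecting genes gave 3 lower and 1 higher of 5 tested (median -0.26), and 2 and 1 in the window, but only 1 of the 3 lower genes passed the filter in the selected nuclei alone. The serotonin receptor Htr1f was higher by 1.02 ± 0.08 (median 123 against 58.6 CPM, window 0.87), whereas Vwc2l had only 12 UMIs in all selected nuclei together and none in 9 of the 16 mice, so no fold change is given. Of layer 6b genes, only Ccn2 was tested, with 23 UMIs in all selected nuclei together, and it did not pass in the window (-0.14, adjusted p = 0.878).

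Genes of ion channels were higher or lower by member. Of 46 excitability channel genes, 15 were higher and 13 lower (median -0.01), and 7 and 11 of 44 in the depth window. All 15 higher but only 7 of the 13 lower genes passed the filter in the selected nuclei alone. The calcium-activated potassium channel Kcnn2, which sets the slower afterhyperpolarization, ranged from 269 to 464 CPM (median 345), against 71.2 to 118 CPM (median 97.1), the largest rise among them (1.90 ± 0.05, window 1.63). The T-type calcium channel Cacna1h ranged from 142 to 291 CPM, against 44.3 to 92.6 CPM (1.63 ± 0.07, window 1.47). Neither overlapped between the selected and the other nuclei. The auxiliary calcium channel subunit Cacna2d3 (0.91 ± 0.06, window 0.69) and the sodium channel Scn1a (0.63 ± 0.05, window 0.35) were also higher. Some potassium channels of fast repolarization and of the resting potential were lower. The leak channel Kcnk2 had a median of 24.5 against 72.3 CPM (-1.58 ± 0.12, window -1.37). Kcnc2 and Kcnc1, fast delayed rectifiers of the Kv3 family, were lower by -1.62 ± 0.17 and -0.98 ± 0.10 (window -1.34 and -1.04), with Kcnc1 at 32.1 to 68.3 CPM, below the 76.1 to 108 CPM of the other nuclei. Kcnk2 and Kcnc2 had 122 and 57 UMIs in all selected nuclei together and did not pass the filter there alone, whereas Kcnc1 did. Kcnh5 had only 22 UMIs, so no fold change is given.

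**Figure D3:**
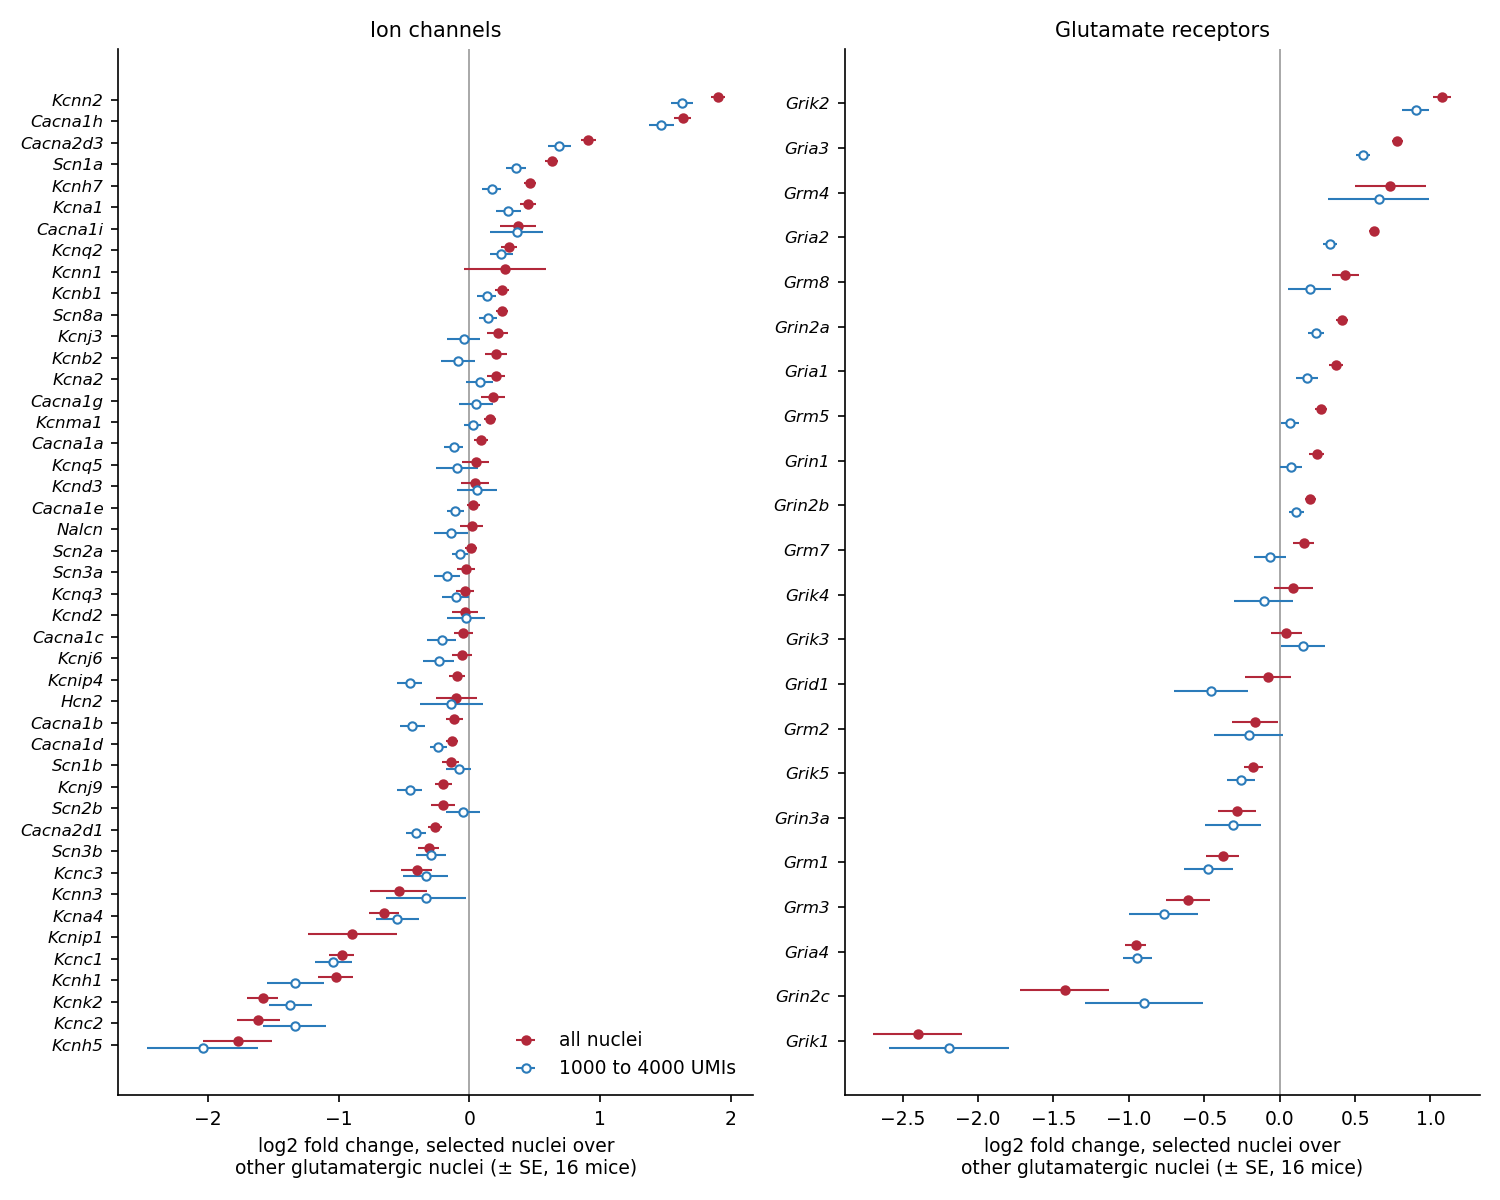
Log2 fold change (± SE, 16 mice) of selected versus other glutamatergic nuclei for tested ion channel genes (left) and glutamate receptor genes (right), over all nuclei (red, filled) and over nuclei of 1000 to 4000 UMIs (blue, open). Kcnn2 lies highest among the channels at 1.90, and among the receptors Grik2 lies at 1.08 and Gria4 at -0.96.

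Glutamate receptor genes also differed by subunit. Of 23 tested, 11 were higher and 6 lower (median 0.16), and 5 and 4 in the depth window, and 10 of the higher but only 3 of the lower genes passed the filter in the selected nuclei alone. The AMPA receptor subunits Gria2 (median 5011 against 3219 CPM, 0.63 ± 0.03, window 0.33) and Gria3 (median 1763 against 1033 CPM, 0.78 ± 0.04, window 0.55) were higher in all 16 mice. Gria4 was lower in all 16, at 68.2 to 157 CPM against 186 to 305 CPM (-0.96 ± 0.07, window -0.94). Subunits of 1 receptor thus went in opposite directions. The kainate receptor subunit Grik2 was higher (1.08 ± 0.06, window 0.90). Grik1, with a median of 15.3 CPM in the other nuclei, had only 15 UMIs in all selected nuclei together and none in 8 mice, so no fold change is given. Of 18 genes of GABA and glycine receptors, 3 were higher and 6 lower (median -0.03), but in the window 1 was higher and none was lower.

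Genes of axon guidance and adhesion went in both directions. Of 50 tested, 25 were higher and 12 lower (median 0.21), and 12 and 9 of 49 in the depth window, and 22 of the higher but only 6 of the lower genes passed the filter in the selected nuclei alone. The Slit receptor Robo1, at 47.8 to 118 CPM against 31.5 to 46.6 CPM, was higher by 1.16 ± 0.09 (window 0.92). Semaphorins Sema6d (1.15 ± 0.08, window 0.81) and Sema3c (1.16 ± 0.19, window 1.11) and the Eph receptor Ephb1 (1.23 ± 0.13, window 0.82) were higher, as was the semaphorin receptor subunit Nrp1 (0.84 ± 0.10). The netrin receptor Unc5d and the semaphorin receptor Plxnd1 had only 39 and 31 UMIs in all selected nuclei together, so no fold change is given. The Eph receptors split, with Epha5 higher (0.63 ± 0.04) and Epha4 lower (-0.77 ± 0.07). Cadherins and protocadherins gave 8 higher and 8 lower of 24 (median 0.04), and 4 and 6 of 22 in the window, and 7 of the higher but only 4 of the lower genes passed the filter in the selected nuclei alone. Cdh6 (1.07 ± 0.12, window 0.84) and Cdh13 (0.85 ± 0.07, window 0.66) were higher, and Pcdh15 (-1.58 ± 0.13, window -1.96) and Cdh12 (-1.22 ± 0.19, window -1.46) were lower, on 101 and 50 UMIs in all selected nuclei together, and neither passed the filter there alone.

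Genes of energy metabolism and of the ribosome were mostly lower over all nuclei, with fewer calls in the depth window. Of the genes of the axonal cytoskeleton and transport, 6 were higher and 25 lower of 40 (median -0.23), and 1 and 7 in the depth window. All 69 called genes of oxidative phosphorylation (76 tested), all 79 of cytosolic ribosomal proteins (80), and all 13 mitochondrially encoded genes were lower, with medians of -0.44, -0.53, and -0.49. In the window 17, 37, and 7 of them were lower. Among chaperones, 12 of 28 were lower and 1 higher (median -0.20), with 3 lower in the window, and among activity-dependent genes 4 of 20 were higher and 2 lower (median 0.04), with 1 higher of 18 in the window. Interferon and MHC class I genes gave 5 lower of 17 tested (median -0.33), among them B2m, the shared light chain of MHC class I (-0.75), but 0 of these 5 passed the filter in the selected nuclei alone, and in the window none of 14 passed. Of 29 genes at Alzheimer disease loci or of APP processing, 3 were higher and 8 lower (median -0.06), and 2 and 5 of 28 in the window. The sorting receptor Sorl1, which directs APP traffic, ranged from 217 to 385 CPM, against 140 to 217 CPM, with overlap at the edge alone (0.81 ± 0.05, window 0.69). The kinase Ptk2b was higher by 0.37 (window 0.36). The apolipoprotein Apoe (-0.79 ± 0.09, window -0.44), made mainly by glia, was lower. Of the mouse genes behind the 3xTg-AD construct, App (-0.20) and Mapt (-0.19) were lower over all nuclei and Thy1 (0.05) did not pass. In the window neither App (-0.15, adjusted p = 0.135) nor Mapt (-0.20, adjusted p = 0.0639) passed.

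Transcripts of other cell types moved with these lists. Of the genes of astrocytes 7 of 8 tested were lower (median -0.98) and of those of oligodendrocytes 7 of 8 (-0.86), and none was higher, but only 2 genes of each list passed the filter in the selected nuclei alone. All tested genes of progenitors (4), microglia (7), and endothelial cells (4) were called lower too, but 0 of them passed the filter in the selected nuclei alone, and the 6 endothelial genes together summed to at most 16.8 CPM there. In the depth window 4 of 8 astrocyte genes, 1 of 5 oligodendrocyte genes, 0 of 3 progenitor genes, and 0 of 7 microglia genes passed, and 0 endothelial genes could be tested. GABAergic neuron genes were lower for 9 of 10 tested (median -0.97, and 5 of 10 in the window), of which 1 passed the filter in the selected nuclei alone, namely Sst, a peptide of interneurons, at a median of 106 against 182 CPM (-0.79, window -0.33). Lamp5 was the exception (0.86 ± 0.07, window 0.43), at 104 to 240 CPM, and it is also expressed by pyramidal neurons. Of 7 striatal projection neuron genes, 3 were lower and 1 higher (median -0.51). The higher one was the phosphodiesterase Pde10a (0.28), which did not pass in the window (0.12, adjusted p = 0.389), and 0 of the 3 lower ones passed the filter in the selected nuclei alone. Of 4 ribosomal RNA-associated transcripts, 3 were lower and Gm26917 was higher (0.28; median of the 4 -0.46), whereas in the window the same 3 were lower and Gm26917 lay at -0.02 and did not pass (adjusted p = 0.916). Drd2 and the layer 6b gene Nxph4 had no UMI in any selected nucleus. The part of these transcripts in the other differences was not tested.

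The largest differences among genes of at least 20 CPM on average belonged to genes outside the lists. The long noncoding RNA 8030451O07Rik (mm10 chr16:72226383-72234327, minus strand, next to Robo1 at chr16:72308306-73046095, plus strand) ranged from 93.3 to 748 CPM (median 309), against 8.82 to 104 CPM (median 42.4). Its log2 fold change was 2.75 ± 0.06, and 2.78 in the depth window, and it was higher in 16 of 16 mice. Trmt9b, a tRNA methyltransferase-like gene, had a median of 67.0 against 12.3 CPM (2.42 ± 0.12, window 2.26). Coro6, of the actin-binding coronin family, had a median of 137 against 27.4 CPM (2.19 ± 0.09, window 1.88). Tcerg1l (2.25) and the unnamed locus Gm44257 (2.20) completed the higher genes. The lower genes were Zfhx4, a homeobox factor (-2.69 ± 0.18, window -2.81), Rskr (-2.53 ± 0.13), Clec18a (-2.37 ± 0.17), the noncoding RNA Rmst (-2.05 ± 0.14), and Smoc2 (-2.01 ± 0.17). Each of these 5 was lower in all 16 mice, and Rmst did not overlap between the sets. Of the 5, only Rmst passed the filter in the selected nuclei alone. Zfhx4, Rskr, Clec18a, and Smoc2 had 35, 77, 47, and 48 UMIs in all of these nuclei together, so their folds are uncertain.

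Selected nuclei were also set beside nuclei that met the same rule except for 1 gene. A Foxp2 UMI put 178 nuclei in a corticothalamic counterpart, tested in the 8 mice with at least 10 of them. Of 3822 genes, 37 were higher (0.968%) and 55 lower (1.44%) in the selected nuclei. Of 5 tested corticothalamic genes, 4 were lower (median -1.05). Tle4, a corepressor, was at 168 ± 26.1 against 479 ± 124 CPM (SD, n = 8 mice, normalized over the genes tested), lower in 8 of 8 mice (-1.51 ± 0.13), and Zfpm2 was lower by the same amount (-1.51 ± 0.22). Etl4 (-1.42), Epb41 (-1.37), Pcdh9 (-1.35), Tenm1 (-1.33), and Nptx1 (-1.30) followed. The higher genes were led by 8030451O07Rik (1.39 ± 0.18, 8 of 8 mice), Brinp3 (1.33), and Lamp5 (1.22). Of 14 tested subcerebral genes, only Ntng1 was called (0.996 ± 0.15), and their median was 0.07, so this list did not separate the selected nuclei from those with Foxp2. Kcnn2 (0.34 ± 0.13, adjusted p = 0.200) did not pass.

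A Tshz2 UMI put 193 nuclei in a near-projecting counterpart, tested in 10 mice. Of 1166 genes, 91 were higher (7.8%) and 129 lower (11.1%). The kinase subunit Camk2d was at 91.7 ± 29.3 CPM in the selected nuclei and at 485 ± 154 CPM in the counterpart (SD, n = 10 mice), lower in 10 of 10 mice (-2.40 ± 0.20). Etv1 (-1.56), the vesicle priming factor Unc13b (-1.52), and Tle4 (-1.51) were lower too. Etv1 was thus higher than in glutamatergic nuclei at large, but lower than in the Tshz2 nuclei. Ralyl, an RNA-binding protein (716 ± 149 against 237 ± 97.5 CPM, 1.53 ± 0.17), the phosphodiesterase Pde4d (1.35), Tafa1 (1.23), 8030451O07Rik (1.16), and Khdrbs2 (1.14) were higher. Of 10 glutamate receptor genes, 6 were higher and Gria4 was lower (-1.14 ± 0.18). Kcnn2 was higher (0.84 ± 0.18). Median depth was 3850 UMIs in the Foxp2 nuclei and 2527 in the Tshz2 nuclei.

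The share of the selected nuclei was then compared between groups. Among glutamatergic nuclei it was 1.17%, 2.02%, 1.496%, and 3.18% in WT control mice 26, 27, 28, and 36, and 1.40%, 1.14%, 2.83%, and 1.94% in alcohol-exposed WT mice 6, 7, 17, and 18. It was 3.37%, 2.58%, 1.87%, and 1.74% in 3xTg-AD controls 12, 13, 14, and 21, and 2.65%, 3.75%, 1.97%, and 3.15% in 3xTg-AD mice 4, 31, 33, and 34 exposed to alcohol. The groups overlapped, with means of 1.96% ± 0.879, 1.83% ± 0.745, 2.39% ± 0.750, and 2.88% ± 0.757 (SD, n = 4). No difference passed in 5 two-sided exact permutation tests, where the lowest p was 0.114, for 3xTg-AD mice versus WT mice both exposed to alcohol (adjusted p = 0.571), and the smallest p that 4 against 4 allows is 0.0286. After adjustment over the 5, 1 contrast alone at that p could not pass. Depth differed between mice too, with medians of the selected nuclei from 2275 UMIs in mouse 7 to 5232 UMIs in mouse 17. Each nucleus was then thinned to 1000 UMIs, and the rule was applied again to the thinned counts. The means were 0.352% ± 0.304, 0.459% ± 0.0458, 0.548% ± 0.168, and 0.548% ± 0.245, and exact p-values ranged from 0.343 to 0.971. The WT control range, from 0.0891% in mouse 27 to 0.768% in mouse 36, then spanned nearly all other mice. These shares rest on few nuclei, 1 in mouse 27, 3 in mouse 26, and at most 18, in mouse 31. Without mouse 36, the WT control mean was 0.213% ± 0.152, and alcohol-exposed WT mice were higher by 0.246 points (exact p = 0.0286, adjusted p = 0.143).

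**Figure D4:**
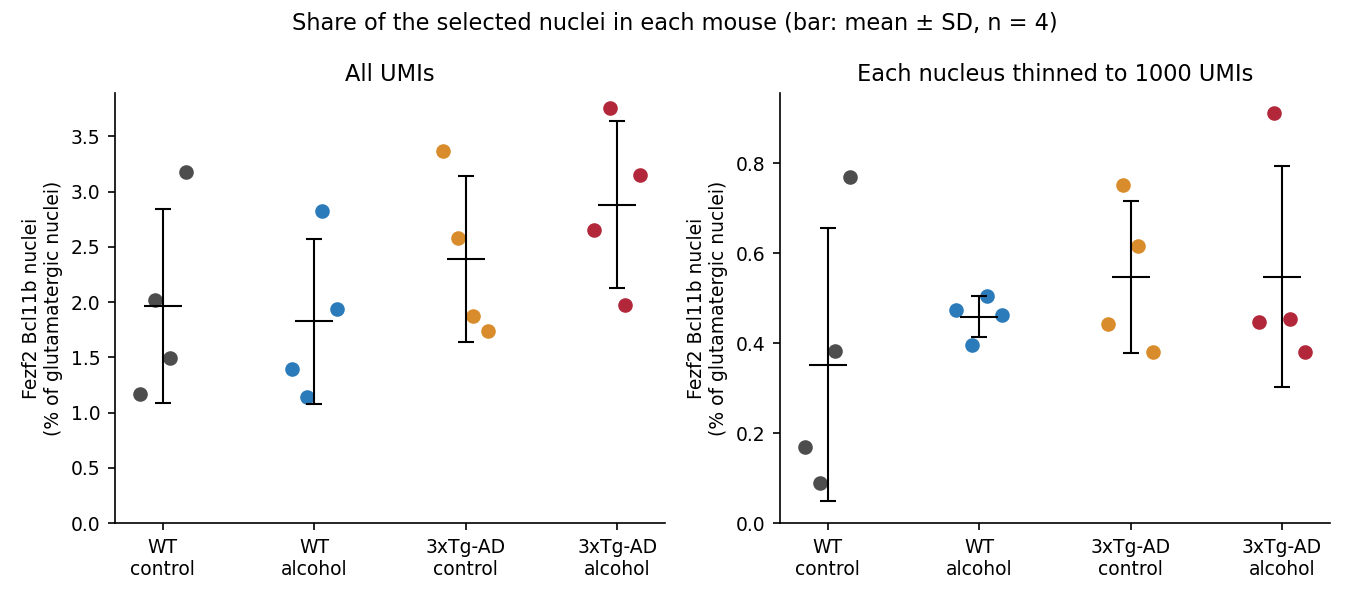
Nuclei that met the rule as a percentage of glutamatergic nuclei in each mouse (points), with the mean ± SD of the 4 mice of a group (bars). The rule was applied to all UMIs (left) and again after thinning each nucleus to 1000 UMIs (right). The groups overlap in both panels, between 1.14% and 3.75% on the left and between 0.0891% and 0.912% on the right.

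Gene expression was compared between groups in the summed counts of the selected nuclei. The genes of the rule are described first, without a test. Fezf2 averaged 346, 385, 394, and 382 CPM in WT controls, alcohol-exposed WT mice, 3xTg-AD controls, and alcohol-exposed 3xTg-AD mice, and Bcl11b averaged 467, 440, 473, and 401 CPM. Of the other genes, 6125 could be tested. In alcohol-exposed 3xTg-AD mice versus WT controls, 5 genes rose and 8 fell (0.212% of those tested). In 3xTg-AD controls versus WT controls 1 gene fell (0.0163%), and in alcohol-exposed WT mice versus WT controls 1 gene fell (0.0163%). These 3 contrasts share the WT controls. Between the alcohol-exposed 3xTg-AD and WT mice, with WT as the base, 4 genes rose and 6 fell (0.163%). The effect of alcohol within 3xTg-AD mice had 0 calls by edgeR and 0 by DESeq2, with 366 genes at an unadjusted p under 0.05, but 16 calls with the share of ribosomal RNA-associated transcripts as a covariate. The interaction of genotype and alcohol gave 0 and 0, with 204 such genes.

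Of the WT controls, mice 26 and 27 stood apart, as did 3xTg-AD control 12. Their selected nuclei held 13093, 8272, and 8455 CPM of the ribosomal RNA-associated transcript Gm42418, whereas each of the other 13 mice held 2199 CPM or less. Without these 3 mice, 7264 genes were tested, and the calls became 34 for alcohol-exposed 3xTg-AD mice versus WT controls (0.468%; 10 of the 13 above among them), 6 for 3xTg-AD controls versus WT controls (0.0826%), 5 for alcohol-exposed WT mice versus WT controls (0.0688%), 25 for 3xTg-AD mice versus WT mice both exposed to alcohol (0.344%; 9 of the 10 above), 11 for alcohol within 3xTg-AD mice (0.151%), and 0 for the interaction (0%). That fit keeps only mice 28 and 36 as WT controls. Neither alcohol-exposed group loses a mouse in it, so their contrast compares the same mice as before. The genes below are given with all 16 mice.

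Galnt1, which encodes an enzyme that starts O-linked glycosylation and lies on chromosome 18, separated the genotypes. Its levels were 160, 75.8, 143, and 136 CPM in WT controls 26, 27, 28, and 36, and 213, 107, 99.3, and 108 CPM in alcohol-exposed WT mice. They were 19.1, 11.7, 22.7, and 9.45 CPM in 3xTg-AD controls, and 34.4, 28.1, 14.6, and 11.1 CPM in alcohol-exposed 3xTg-AD mice. Every 3xTg-AD mouse lay below every WT mouse. Galnt1 fell by 2.50 ± 0.31 (SE) on the log2 scale in alcohol-exposed 3xTg-AD mice versus WT controls (edgeR adjusted p = 7.55e-07), and by 3.00 ± 0.36 in 3xTg-AD controls (adjusted p = 2.12e-07), with no call for alcohol-exposed WT mice (-0.03, adjusted p = 0.994). It also fell by 2.47 ± 0.31 in 3xTg-AD versus WT mice both exposed to alcohol. These calls held in every alternative run and without any 1 mouse. The other glutamatergic nuclei had the same pattern, at 120 ± 49.3 and 131 ± 57.8 CPM in the WT groups and 23.2 ± 1.92 and 23.1 ± 1.78 CPM in the 3xTg-AD groups (SD, n = 4).

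Dynlt1f, a light chain of the dynein motor (mm10 chr17:6646602-6655900), was highest in WT controls. It stood at 227, 120, 116, and 114 CPM in WT controls, 35.6, 32.1, 14.2, and 30.3 CPM in alcohol-exposed WT mice, 62.0, 78.3, 31.8, and 61.4 CPM in 3xTg-AD controls, and 51.6, 36.1, 32.8, and 33.4 CPM in alcohol-exposed 3xTg-AD mice. The WT controls did not overlap with any other group. Dynlt1f fell by 2.50 ± 0.34 in alcohol-exposed WT mice versus WT controls (edgeR adjusted p = 5.48e-06) and by 1.87 ± 0.28 in alcohol-exposed 3xTg-AD mice (adjusted p = 4.62e-05), and its difference in 3xTg-AD controls did not pass (-1.27, adjusted p = 0.0645). With the ribosomal RNA share as a covariate, the second of these was -1.40 and did not pass (adjusted p = 0.0646). Dynlt1f belongs to a family of near-identical copies on chromosome 17, among which reads can be split, so its level is uncertain.

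Sap130, a subunit of the Sin3 histone deacetylase complex on chromosome 18, was higher in 3xTg-AD mice. It stood at 20, 31.6, 34.1, and 33.9 CPM in WT controls and 35.6, 42.8, 34.4, and 43.7 CPM in alcohol-exposed WT mice. In 3xTg-AD controls it stood at 114, 74.4, 68.2, and 56.7 CPM, and in alcohol-exposed 3xTg-AD mice at 73.7, 112, 131, and 103 CPM. The genotypes did not overlap. Sap130 rose by 1.71 ± 0.30 in alcohol-exposed 3xTg-AD mice versus WT controls (edgeR adjusted p = 0.00119) and by 1.40 ± 0.28 versus alcohol-exposed WT mice (adjusted p = 0.00553), whereas 1.37 in 3xTg-AD controls did not pass (adjusted p = 0.0971). The call versus alcohol-exposed WT mice was lost in DESeq2 (1.41) and without mouse 17 (1.29). Without the 3 mice richest in Gm42418 it was 1.41 (adjusted p = 0.000647), but those mice are in neither group of this contrast. In the other glutamatergic nuclei Sap130 was 0.99 higher versus WT controls (adjusted p = 3.67e-05).

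Gpm6b, a membrane glycoprotein of the proteolipid family on chromosome X (mm10 chrX:166238911-166388988), followed the genotype as well. Its levels were 847, 550, 519, and 499 CPM in WT controls, 492, 642, 573, and 713 CPM in alcohol-exposed WT mice, 1004, 830, 933, and 1002 CPM in 3xTg-AD controls, and 1044, 1078, 1063, and 1324 CPM in alcohol-exposed 3xTg-AD mice. Only WT control 26 reached into the 3xTg-AD range. Gpm6b rose by 0.87 ± 0.17 in alcohol-exposed 3xTg-AD mice versus WT controls (edgeR adjusted p = 0.00591) and by 0.85 ± 0.17 versus alcohol-exposed WT mice (adjusted p = 0.00553). Without mouse 34 the first value was 0.78 and did not pass (adjusted p = 0.0549), and the second was lost without mouse 6, 17, or 34. Without the 3 mice richest in Gm42418 both were called (1.13 and 0.87). That fit had only mice 28 and 36 as WT controls for the first value, and compared the same mice as before for the second. The value for 3xTg-AD controls did not pass (0.61, adjusted p = 0.311), but it was called without the 3 mice richest in Gm42418 (0.86, adjusted p = 0.0241).

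The calls of the remaining genes of this contrast were lost without some single mice. The cyclin Ccnd2 (mm10 chr6:127125162-127152193, overlapped by genes of the other strand) was at 393, 392, 218, and 167 CPM in WT controls and at 142, 122, 98.3, and 142 CPM in alcohol-exposed 3xTg-AD mice. It fell by 1.19 ± 0.23 (edgeR adjusted p = 0.0065), but the call was lost without mouse 26 (-0.99), and also (-0.55) once the 3 mice richest in Gm42418 were left out. The ciliary gene Cfap54 was at 86.7, 82.1, 47.8, and 50.9 CPM, against 19.6, 22.1, 10.9, and 22.2 CPM (-1.74 ± 0.36, adjusted p = 0.011), and its call was lost without mouse 26 and without the same 3 mice (-1.36). For both genes these groups did not overlap, and the highest WT controls were the mice rich in Gm42418. The snoRNA host Gas5 rose from 193, 215, 143, and 133 CPM to 363, 351, 393, and 323 CPM (1.06 ± 0.22, adjusted p = 0.011). The cleavage stimulation factor Cstf3 rose by 1.005 ± 0.21 (adjusted p = 0.0134) and the splicing regulator Celf3 by 0.89 ± 0.19 (adjusted p = 0.0144). Ttc8, a BBSome subunit of the cilium, fell by 1.36 ± 0.32 (adjusted p = 0.0345), and the ribosomal RNA-associated transcript AY036118 by 0.75 ± 0.17 (adjusted p = 0.0324). Each of these 5 calls was lost when 1 mouse was left out, namely mouse 28 or 36 for Gas5, 28 or 34 for Cstf3, 26, 33, 34, or 36 for Celf3, 4, 28, 31, 33, 34, or 36 for Ttc8, and 4, 26, 28, 31, 34, or 36 for AY036118. Without those mice the values were 0.89 to 1.007 for Gas5, 0.88 to 0.92 for Cstf3, 0.80 to 0.90 for Celf3, -1.44 to -0.998 for Ttc8, and -0.77 to -0.68 for AY036118. Without the 3 mice richest in Gm42418, each of the 5 was called, at 1.37, 1.09, 0.88, -1.63, and -0.84. That fit has only mice 28 and 36 as WT controls, and each of the 5 calls above was lost without mouse 28 or 36. It also called Ttc8 versus WT controls in 3xTg-AD controls (-1.96, edgeR adjusted p = 0.0122) and in alcohol-exposed WT mice (-1.53, adjusted p = 0.0464). The unnamed loci Gm17167 (-5.95 ± 0.97, adjusted p = 0.0226) and Gm19667 (-2.11 ± 0.48, adjusted p = 0.0258) also fell. Gm17167 was at 109 to 200 CPM in WT controls and at 0 to 3.64 CPM in alcohol-exposed 3xTg-AD mice, and it was at 0 in 1 alcohol-exposed WT mouse.

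Between 3xTg-AD and WT mice both exposed to alcohol, Wwox fell most among the annotated genes outside Galnt1. Wwox (mm10 chr8:114439655-115352708) encodes an oxidoreductase with WW domains at an Alzheimer disease locus. It stood at 53.3, 96.3, 150, and 178 CPM in alcohol-exposed WT mice and at 27.02, 30.1, 58.2, and 33.4 CPM in alcohol-exposed 3xTg-AD mice, where mouse 33 lay just above WT mouse 6. In WT controls it stood at 107, 69.5, 34.1, and 92.1 CPM, and in 3xTg-AD controls at 33.4, 39.1, 31.8, and 61.4 CPM. The log2 fold change between the alcohol groups was -1.90 ± 0.30 (edgeR adjusted p = 0.000157), and that versus WT controls did not pass (-1.17, adjusted p = 0.13). The chemokine Ccl27a was at 237, 214, 158, and 229 CPM in alcohol-exposed WT mice, and at 76.1, 74.3, 61.9, and 120 CPM in alcohol-exposed 3xTg-AD mice (-1.33 ± 0.23, adjusted p = 0.000516). Timp4, a metalloproteinase inhibitor, was at 332, 268, 168, and 232 CPM, against 78.6, 114, 69.2, and 97.3 CPM (-1.42 ± 0.25, adjusted p = 0.000931). The alcohol groups did not overlap for either gene. Ccl27a and Timp4 each lie opposite another gene, Il11ra1 and Syn2. Aste1 (1.86 ± 0.41, adjusted p = 0.0327) and Abhd14a (1.87 ± 0.44, adjusted p = 0.046) rose, but neither was called in DESeq2 (1.78 and 1.88). Aste1 was lost without mouse 17 (1.19), 31 (1.68), or 34 (1.84), and Abhd14a without any 1 mouse of 8 (1.61 to 1.94). Without the 3 mice richest in Gm42418 both were called, at 1.89 (adjusted p = 0.00392) and 1.90 (adjusted p = 0.00743). None of those 3 mice is in an alcohol group, so the same mice were compared and these calls are no independent support. Gm17167 and Gm19667 fell here too (-5.78 and -2.07), and in both contrasts their calls were lost without any 1 of at least 5 mice.

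**Figure D5:**
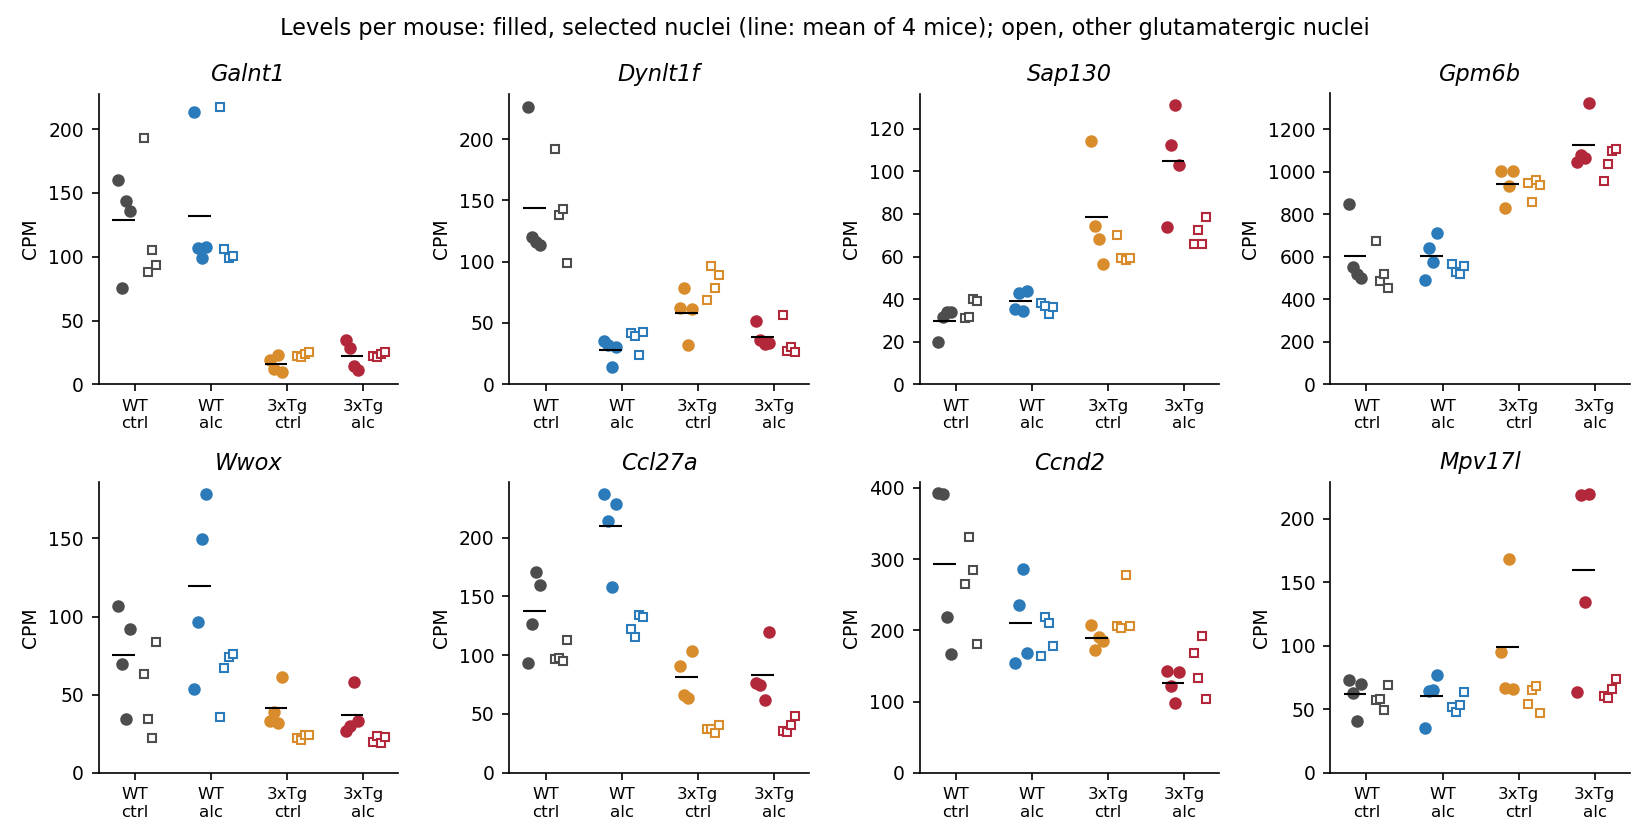
Levels (CPM) of 8 genes in each mouse by group, in the selected nuclei (filled circles, line at the mean of 4 mice) and in the other glutamatergic nuclei (open squares). Galnt1 lies between 9.45 and 34.4 CPM in the selected nuclei of all 3xTg-AD mice and at 75.8 CPM or more in all WT mice, and the open squares of the same mice follow the circles for most genes.

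The difference of each group effect between the selected and the other glutamatergic nuclei was fitted in 1 model. For the genes called in the group contrasts above, no such difference was called (adjusted p of at least 0.832). The other glutamatergic nuclei, with more UMIs, gave 482 calls of 15422 genes for alcohol-exposed 3xTg-AD mice versus WT controls, and their values for Dynlt1f (-2.02), Gpm6b (0.98), Ccnd2 (-0.83), Cfap54 (-1.38), and Gas5 (0.87) had the sign of the selected nuclei. Few genes differed in effect. They numbered 2 of 12429 for alcohol-exposed 3xTg-AD mice versus WT controls, 2 for 3xTg-AD controls, 2 for alcohol-exposed WT mice, 1 for alcohol within 3xTg-AD mice, 3 for 3xTg-AD versus WT mice both exposed to alcohol, and 2 for the interaction.

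None of the 18 testable subcerebral genes was called between groups in any of the 6 contrasts with all 16 mice, and their median log2 fold change lay between -0.20 and 0.05. Kcnn2 averaged 365 ± 72.9, 307 ± 18.7, 357 ± 78.5, and 375 ± 84.5 CPM in WT controls, alcohol-exposed WT mice, 3xTg-AD controls, and alcohol-exposed 3xTg-AD mice (SD, n = 4). Of all gene lists, AY036118 and Wwox were the only members called in any of these contrasts with all 16 mice. Without the 3 mice richest in Gm42418, both were called again, and so were Gm42418 itself (-0.67, adjusted p = 0.0241), by which those mice were chosen, and the genes Slit3, Pcdh17, and Kcnip4 given below. The same fit called Tmsb4x, the actin-sequestering thymosin β4, in alcohol-exposed 3xTg-AD mice versus WT controls (0.81, adjusted p = 0.00533), in 3xTg-AD controls versus WT controls (1.04, adjusted p = 0.000427), and in 3xTg-AD versus WT mice both exposed to alcohol (0.68, adjusted p = 0.00222). With all 16 mice these values of Tmsb4x were 1.23, 1.23, and 0.67, and none passed (adjusted p = 0.183, 0.502, and 0.737). The WT controls of the smaller fit were mice 28 and 36 only. In alcohol-exposed WT mice versus WT controls, the ribosomal protein genes and the oxidative phosphorylation genes had medians of 0.34 and 0.31. With the ribosomal RNA share as a covariate these were 0.11 and 0.07. Of these lists 78 and 74 genes passed the filter in the selected nuclei, with 0 calls in edgeR and 15 and 8 at an unadjusted p under 0.05. Over all genes 485 of 6125 had such a p, so the second count was near the share over all genes. Thy1, whose regulatory sequence drives the transgenes, was at 220, 133, 150, and 179 CPM in WT controls and at 278, 203, 444, and 267 CPM in alcohol-exposed 3xTg-AD mice (0.74, adjusted p = 0.21).

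Markers of other cell types were present in the selected nuclei of all groups. The summed microglia genes ranged from 25.3 to 47.8 CPM in WT controls, 72.9 to 107 CPM in alcohol-exposed WT mice, 50.04 to 62.6 CPM in 3xTg-AD controls, and 78.6 to 110 CPM in alcohol-exposed 3xTg-AD mice. Both groups exposed to alcohol thus lay above both control groups here, but 0 of 7 tested microglia genes passed the filter in the selected nuclei alone. In the other glutamatergic nuclei the groups overlapped, at 68.2 to 101, 95.6 to 135, 79.0 to 124, and 108 to 177 CPM in the same order. The part of these transcripts in the group differences was not tested. Astrocyte genes summed to 69.5 to 368, 192 to 364, 76.3 to 241, and 115 to 415 CPM, and oligodendrocyte genes to 133 to 267, 77.1 to 247, 182 to 331, and 197 to 339 CPM, with overlap between all groups. GABAergic neuron genes outside the rule summed to 373 to 419, 246 to 438, 191 to 431, and 281 to 405 CPM, in which Lamp5 had a median of 156 CPM over the 16 mice. Striatal projection neuron genes summed to 280 to 407, 255 to 319, 223 to 417, and 222 to 473 CPM, with medians of 344, 287, 319.7, and 395 CPM against 315, 269, 329.7, and 322 CPM in the other glutamatergic nuclei. Of that sum most was Pde10a, at a median of 276 CPM over the 16 mice. The GABAergic and striatal sums thus stood near the level of Fezf2 itself, and in 3 groups the striatal median was above that of the other nuclei.

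Leaving out the 3 mice richest in Gm42418 brought out genes of alcohol exposure within 3xTg-AD mice, all chosen after their values were seen. The noncoding RNA 8030451O07Rik fell by 1.07 ± 0.18 (edgeR adjusted p = 0.000485), although with all 16 mice it was -0.77 and did not pass (adjusted p = 0.86). With all mice it stood at 186, 748, 509, and 472 CPM in 3xTg-AD controls 12, 13, 14, and 21, and at 263, 315, 320, and 220 CPM in alcohol-exposed 3xTg-AD mice. Mouse 12, 1 of the 3 left out, was the only control below the exposed mice, but leaving out mouse 12 alone, or any other 1 mouse, gave 0 calls in this contrast. The axon guidance ligand Slit3 rose (1.63) in the same fit, as did the adhesion molecules Opcml (0.63) and Pcdh17 (0.72), and the glutathione synthetase Gss fell (-1.31). None of these 4 passed with all 16 mice, where Slit3 was 0.56 (adjusted p = 0.857), Opcml 0.57, Pcdh17 0.61, and Gss -1.07. In alcohol-exposed WT mice versus WT controls, the prostaglandin synthase Ptgds (2.48, adjusted p = 9.46e-05) and the potassium channel partner Kcnip4 (1.19) rose, against 2 WT controls only (mice 28 and 36). With all 16 mice neither passed, at 1.02 (adjusted p = 0.753) and 0.50 (adjusted p = 0.629).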

How the data were processed

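Nuclei of the medial PFC of 16 male mice were profiled on the 10x Genomics platform. The authors aligned reads to mm10 with Cell Ranger 6.1.1 and deposited raw UMI counts per gene and nucleus (19999 genes), with 4955 to 9096 nuclei and 9622031 to 17544364 UMIs per mouse, 216742276 in all. The limits of their filter on nuclei are not given in the sources used here. All nuclei were used, and the table holds more of them than the study's text states. No doublet caller was run, and 5% of the members with the most UMIs in each mouse were left out in an alternative.

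The rule, the gene lists, and the comparisons were chosen with earlier results of these data known. Members are nuclei that met the rule. Their counts were summed per mouse and tested with the quasi-likelihood fit of edgeR 4.0.16 in R 4.3.3 (TMM, filterByExpr with a minimum count of 10, robust, limma 3.58.1, statmod 1.5.0). Groups were compared over all 16 mice in 1 fit with no covariate. Members were compared with other nuclei with the mouse as a term, in mice with at least 10 nuclei on each side. Levels per mouse are CPM on the TMM scale of the comparison with other glutamatergic nuclei. P-values were adjusted by Benjamini-Hochberg over all genes tested, and the limit for a call was 0.05. Genes of the rule were left out of the tests. Shares were compared by two-sided exact permutation tests written in Python 3.11.15, with p-values adjusted over the 5 contrasts. Thinning drew 1000 UMIs per nucleus (seed 11, numpy 2.4.6).

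Counts were simulated for alcohol-exposed 3xTg-AD mice versus WT controls (5991 genes). Of the 50 genes at each fold, 11 were called at 1.5-fold, 40 at 2-fold, 50 at 3-fold, and 49 at 4-fold, with 7 false calls. Smaller changes are thus often missed at this depth. The changed genes were drawn from those of higher level, and all genes had 1 common spread between mice. Genes of lower level or wider spread were not covered.

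Genes were named by rule. These were the called genes with the smallest p in each group contrast (unnamed loci were left out of the ranking, and those in the text were added), the list members called in any comparison with up to 4 others of the highest level, and the 10 largest called differences in each comparison of nuclei. Some genes and an allele of the mouse model are not reported here. Genes of the fit without 3 mice were picked after their values were seen. The split of calls by whether a gene passed the filter in the sums of the members alone was also added then. Coordinates are those of gencode vM21 on mm10. Alternatives were size factors of DESeq2 1.42.0, no filter, the DESeq2 test, the share of ribosomal RNA-associated transcripts as a covariate, the fit without the 3 mice with the most Gm42418, 3 stricter member rules, and leaving out each mouse. The alternatives of the comparisons with the Foxp2 and Tshz2 nuclei and of the difference of effects were added after the data were seen.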

Additional observations from a re-analysis of the deposited data

Results flagged for a closer look

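A gap test for 1 mouse far from the other 3 of its group (Dixon's ratio of the gap to the whole range) was run on 124 groups of 4 values and marked 9 of them, and chance alone marks about 1 in 20. The share of nuclei that met the rule after thinning was 0.912% in mouse 31 of the alcohol-exposed 3xTg-AD mice, against 0.380% to 0.453% in the others (ratio 0.864). In mouse 34 of the same group the selected nuclei had a median of 4632.5 UMIs, against 3570.5 to 3699 (0.879), and Gpm6b was at 1324 CPM, against 1044 to 1078 CPM (0.877). App was at 325 CPM in mouse 31, against 403 to 415 CPM (0.869). In WT control 26 Dynlt1f was at 227 CPM, against 114 to 120 CPM (0.945), and Gpm6b was at 847 CPM, against 499 to 550 CPM (0.854). Npr3 was at 88.2 CPM in 3xTg-AD control 12, against 27.4 to 37.8 CPM (0.82905). Galnt1 was at 213 CPM in mouse 6 of the alcohol-exposed WT mice, against 99.3 to 108 CPM (0.927), and Cfap54 was at 10.7 CPM in mouse 7, against 46.6 to 50.4 CPM (0.903).

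Some group effects differed between the selected and the other glutamatergic nuclei in edgeR, where a positive value means a higher fold change in the selected nuclei. Mpv17l, a peroxisomal membrane protein, was higher in the alcohol-exposed 3xTg-AD mice, by 1.24 ± 0.23 versus WT controls (adjusted p = 0.00138) and by 1.12 ± 0.22 versus alcohol-exposed WT mice (adjusted p = 0.00331). It was at 63.9, 219, 135, and 220 CPM in their selected nuclei and at 59.2 to 73.6 CPM in their other glutamatergic nuclei, and mouse 4 did not share the high level. The first call was lost without mouse 31, 34, or 36, and the second without mouse 6, 17, 31, or 34. Arhgef40, a guanine nucleotide exchange factor, was lower by 2.37 ± 0.41 in 3xTg-AD controls versus WT controls (value -2.37, adjusted p = 0.000127) and by 1.46 ± 0.33 in alcohol-exposed 3xTg-AD mice (value -1.46, adjusted p = 0.0486). It was at 66.7, 12.6, 20.5, and 111 CPM in WT controls, highest in mice 26 and 36, and without mouse 36 the values were -1.77 and -0.86 and neither was called. Pogk was higher by 2.43 ± 0.50 in 3xTg-AD controls versus WT controls (adjusted p = 0.00878), at 33.4, 54.8, 50.04, and 42.5 CPM against 0, 6.32, 20.5, and 9.69 CPM in the selected nuclei, and was lost without mouse 13, 14, 26, or 36.

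Cenpf, a centromere protein of dividing cells, differed by 5.19 ± 0.72 in alcohol-exposed WT mice versus WT controls (adjusted p = 1.18e-08) and by -2.92 ± 0.44 in 3xTg-AD versus WT mice both exposed to alcohol (adjusted p = 6.34e-07). It stood at 107 and 75.0 CPM in mice 6 and 17 and at 0 in mice 7 and 18. Gm10457 gave 10.2 ± 1.84 for alcohol-exposed WT mice versus WT controls (adjusted p = 0.000214) and -10.7 ± 2.13 for the interaction (adjusted p = 0.00339), but the selected nuclei of the 4 WT controls held no UMI of it, so these fitted values depend on the prior count and are no fold. Hemoglobin Hbb-bs, a transcript of red blood cells, differed by -0.93 ± 0.19 for alcohol within 3xTg-AD mice (adjusted p = 0.015), by -1.01 ± 0.23 for 3xTg-AD versus WT mice both exposed to alcohol (adjusted p = 0.0427), and by -1.75 ± 0.32 for the interaction (adjusted p = 0.00066). It was at 106, 171, 36.4, and 33.4 CPM in the selected nuclei of alcohol-exposed 3xTg-AD mice and at 223, 553, 82.3, and 216 CPM in their other glutamatergic nuclei. Each of the Hbb-bs calls was lost without at least 1 single mouse, mouse 17 or 36 for the interaction. The Cenpf value between the alcohol groups was lost without mouse 17 (-2.76).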

How the results depend on the processing

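No paired analysis was possible because the groups share no mouse numbers. Counts of called genes and differences of the share both depended on the processing. For alcohol within 3xTg-AD mice the share differed by 0.491 points unthinned and by 0.00052 points thinned. For alcohol-exposed WT mice versus WT controls it was 0.107 points thinned and -0.138 points unthinned. It was -0.0413 points with all nuclei as denominator, -0.228 for the members with at least 3 UMIs of Fezf2 and Bcl11b together, and -0.187 for those without a corticothalamic UMI. Without a filter beyond 1 count, the calls were 43 for alcohol-exposed 3xTg-AD mice versus WT controls (13 with the filter), 20 for 3xTg-AD controls versus WT controls (1), 8 for alcohol-exposed WT mice versus WT controls (1), 33 for 3xTg-AD versus WT mice both exposed to alcohol (10), 1 for the interaction (0), 229 versus the Foxp2 nuclei (92), 552 versus the Tshz2 nuclei (220), and 2 for the difference between selected and other nuclei in the effect of alcohol within 3xTg-AD mice (1). DESeq2 gave 3 for 3xTg-AD controls versus WT controls and 51 versus the Foxp2 nuclei. With the ribosomal RNA share as a covariate the counts were 7 for 3xTg-AD controls versus WT controls, 16 for alcohol within 3xTg-AD mice (0), and 21 for 3xTg-AD versus WT mice both exposed to alcohol. Without the 3 mice with the most Gm42418 they were 34, 6, and 5 for the 3 contrasts with WT controls in the order above, 25 for 3xTg-AD versus WT mice both exposed to alcohol, and 11 for alcohol within 3xTg-AD mice, and the differences between selected and other nuclei numbered 1 for 3xTg-AD controls versus WT controls, 3 for alcohol within 3xTg-AD mice, and 4 for the interaction. For 3xTg-AD controls versus WT controls, members without a corticothalamic UMI (972 nuclei) gave 5, members with at least 3 UMIs of Fezf2 and Bcl11b together (647) gave 2, and members without the top 5% by UMIs (1162) gave 2. The 647 nuclei gave 2 for alcohol-exposed WT mice versus WT controls, and the 1162 gave 6 for 3xTg-AD versus WT mice both exposed to alcohol. In nuclei of 1000 to 4000 UMIs, calls versus other glutamatergic nuclei were 1157 (4125 over all nuclei), and among the genes whose values are given for this comparison, Nefl (0.021), Syt6 (0.16), Rprm (0.013), Tle4 (0.067), and Gm26917 (-0.020) changed sign without passing. These fits test other numbers of genes or nuclei, and the cause of each move was not tested.

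Leaving out 1 mouse at a time gave 6 (without mouse 34) to 34 (without mouse 12) calls for alcohol-exposed 3xTg-AD mice versus WT controls, with 22 without mouse 27. It gave 1 to 7 for 3xTg-AD controls versus WT controls (7 without mouse 27, 5 without mouse 12), 1 to 3 for alcohol-exposed WT mice versus WT controls (3 without mouse 36, 2 without mouse 26), 0 to 0 for alcohol within 3xTg-AD mice and for the interaction, and 5 (without mouse 34) to 15 for 3xTg-AD versus WT mice both exposed to alcohol. Versus other glutamatergic nuclei it gave 3802 to 4160, versus the Foxp2 nuclei 52 (without mouse 31) to 92, and versus the Tshz2 nuclei 162 to 278. The differences of effect between selected and other nuclei ranged from 0 to 4 for alcohol-exposed 3xTg-AD mice versus WT controls (1 without mouse 26, 4 without mouse 36), 1 to 5 for 3xTg-AD controls versus WT controls (5 without mouse 28), 1 to 3 for alcohol-exposed WT mice versus WT controls, 0 to 3 for alcohol within 3xTg-AD mice, and 0 to 4 each for 3xTg-AD versus WT mice both exposed to alcohol and for the interaction. Differences of the thinned share, in points of percentage, ranged from 0.0746 to 0.335 for alcohol-exposed 3xTg-AD mice versus WT controls, from 0.108 to 0.334 for 3xTg-AD controls, from 0.0191 to 0.246 for alcohol-exposed WT mice, from -0.121 to 0.0684 for alcohol within 3xTg-AD mice, and from -0.0322 to 0.145 between the alcohol groups.

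Of the alternatives for single genes and lists, 993 values counted as unchanged. For a gene, that meant the same sign and side of the threshold, or no call in either run whatever the sign. For a list, the median moved by less than its SD between the mice of a group. Of the rest, 61 lost a call, 15 gained one, and 19 list medians moved by at least that SD. A further 4 gene values changed sign with a call in at least 1 run. Sums of 33 nuclei, as in mouse 7, hold few UMIs of a gene of low level, so small changes would not show.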
